A study of Rattus norvegicus with 18 samples.

Results

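The proteasome subunit genes are the 47 gene records whose symbols begin with Psma to Psmg and a digit, of 17455 listed in each RNA table, without the immunoproteasome subunits Psmb8, Psmb9 and Psmb10. Symbols alone set membership and no measured value entered the rule, though earlier results of these data were known when it was chosen. Both particles were compared: the 16 genes of the 20S core particle (Psma1 to Psma8, Psmb1 to Psmb7 and Psmb11) and the 17 genes of the 19S regulatory particle (the ATPases Psmc1 to Psmc6 and 11 non-ATPase subunits from Psmd1 to Psmd14). The other 14 records are 3 chaperones of 19S assembly, 3 chaperones of 20S assembly, 4 activators, 1 inhibitor, a second record of Psma3 and 2 interacting proteins, Psmc3ip and Psme3ip1, that carry a subunit's name but are no subunits.

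The proteasome degrades proteins that carry ubiquitin chains. Its core is a barrel in which rings of alpha subunits gate the entry and rings of beta subunits, among them the catalytic Psmb5, Psmb6 and Psmb7, cut the substrate. The regulatory particle binds ubiquitin, unfolds the substrate with its ATPases and passes it into the core. When proteasome activity falls short, mammalian cells are known to raise the subunit genes together through the transcription factor Nfe2l1, and cells need each subunit in a set ratio to the others. Heart muscle relies on this machinery to turn over contractile proteins.

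The cells were H9c2, a rat heart myoblast line of wild-type genotype per the labels, treated with bufalin, treated with periplocin, or left as control, with 3 IP and 3 input libraries per condition. Bufalin and periplocin are cardiotonic steroids, which block the sodium and potassium pump, and the series asked whether the mRNA mark N6-methyladenosine (m6A) has a role in the heart toxicity of these compounds. Doses and times are not in the labels, nor is whether replicates were separate cultures, so p-values may measure technical spread. The deposited tables give each compound against the same controls with no value per library, and in bulk RNA a change in every cell cannot be told apart from a change in the mix of cells. Of 8 myoblast and heart muscle markers, 6 reached a mean of 10 normalized counts in the authors' deposited table for bufalin, among them Vim, Tnnt2, Des and Myod1, while Nppa was under 10 and Actc1 was listed at 0. Of the markers of other cells, the endothelial Vwf had a mean of 274 and the leukocyte marker Cd68 of 79.6 in the authors' deposited table, and Pecam1, Cdh5, Ptprc, Epcam and Cdh1 were under 10.

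No proteasome gene passed an adjusted p of 0.05 with either compound. By limits chosen after the values were seen, 38 of 47 members with bufalin and 39 of 47 with periplocin had 95% intervals between 0.8-fold and 1.25-fold of control. Such intervals were found in 50.7% and 55.8% of all genes whose mean reached 10 normalized counts. At a mean of at least 1000, which 38 members had, the shares of all genes were 85.7% and 92.0%. Folds, fitted group means and intervals here and below were computed from the authors' deposited tables. With bufalin the median member stood at 0.974-fold of control, with 13 members above and 34 below control. With periplocin it stood at 0.984-fold, with 17 above and 30 below. Across the table, 5339 of 10679 genes whose mean reached 10 normalized counts were below control with bufalin, and 5400 of 10695 with periplocin. By the authors' DESeq2 test 0 of the 34 members with an adjusted p were called with bufalin, where 0.301% of all genes were and an adjusted p was given only from a mean of 2259 counts, and 0 of 47 with periplocin, where 0.538% were. Adjusted again over all genes with a p, the count remained 0 with both, against 0.0932% and 0.519% of all genes. At an unadjusted p under 0.05, 1 of 47 members passed with bufalin (Psmb2, lower) and 4 of 47 with periplocin (Psmb6, higher, and Psma8, Psmd14 and Psme2, lower), where 5.0% and 6.25% of all genes did. Among all genes whose mean reached 1000, 424 of 5432 did with bufalin and 506 of 5379 with periplocin. Of the members just named, only Psmd14 and Psme2 had such means. By direction, 0 of 47 members were higher and 1 lower with bufalin, where 3.04% of all genes passed and were higher and 1.96% lower. With periplocin 1 of 47 members was higher and 3 were lower, where 4.09% of all genes passed and were higher and 2.15% lower, and of the 3 lower members Psma8 had a mean of 3.40 counts.

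**Figure D1:**
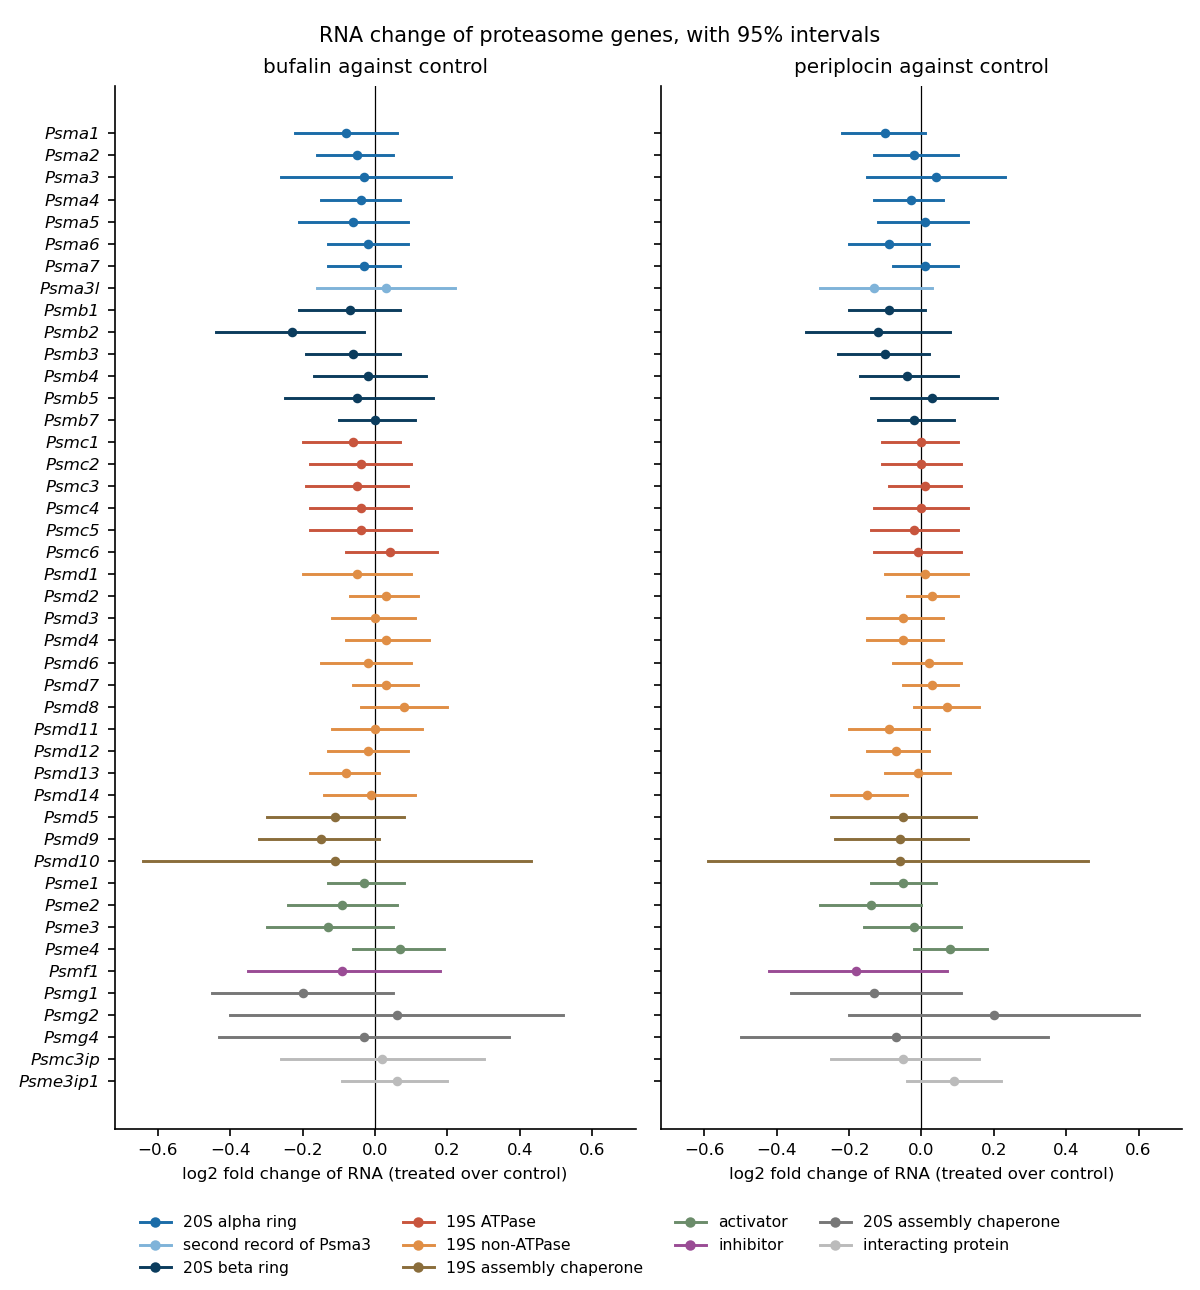
RNA change of the 44 proteasome gene records with a mean of at least 100 normalized counts in both tables, bufalin at left and periplocin at right. Points are log2 fold changes (treated over control), lines are 95% intervals, colours are subunit classes, and only Psmb2 with bufalin and Psmd14 and Psme2 with periplocin have intervals that leave 0 out.

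The alpha ring of the core, which forms the gate, showed small differences. Psma1 had a fitted mean of 3608 normalized counts with bufalin and 3809 in control, and of 3436 with periplocin against 3690 in control. That is 0.947-fold (interval 0.861 to 1.04) with bufalin and 0.931-fold (interval 0.859 to 1.01) with periplocin. Psma4, at 8792 with bufalin and 9056 in control, stood at 0.971-fold (interval 0.901 to 1.05), and with periplocin at 0.976-fold (interval 0.915 to 1.04). Psma7 was at 0.976-fold (interval 0.911 to 1.05) and 1.0-fold (interval 0.943 to 1.07) with bufalin and periplocin. Psma5 held 2493 with bufalin and 2601 in control, or 0.959-fold (interval 0.864 to 1.06), and 2528 with periplocin against 2519 in control, or 1.0-fold (interval 0.917 to 1.10). Psma6 held 3813 with bufalin and 3864 in control, or 0.987-fold (interval 0.913 to 1.07), and 3513 with periplocin against 3743 in control, or 0.939-fold (interval 0.871 to 1.01). All 8 alpha genes were below control with bufalin and 5 of 8 with periplocin, and 0 of these differences passed the DESeq2 test. The 8 include Psma8, which had very few counts. They leave out the second record of Psma3, at 1.02-fold with bufalin and 0.916-fold with periplocin.

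Psma8 encodes the alpha subunit of the testis proteasome, and its RNA was near the floor of detection. Its fitted mean was 2.75 normalized counts with bufalin and 7.02 in control, and 0.18 with periplocin against 6.61 in control. The unadjusted p with periplocin was 0.0238 and the adjusted p 0.617 in the authors' deposited table (DESeq2), and with so few counts no fold is given.

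Psma3 is listed in a pair of records, Psma3 and Psma3l, and RefSeq gives the second as a synonym of the first. Their m6A peaks lie on the same strand of chromosome 6 and overlap, and whether the counting split reads between the records was not tested. With bufalin Psma3 stood at 0.982-fold and Psma3l at 1.02-fold of control. With periplocin they stood at 1.03-fold (interval 0.900 to 1.18) and 0.916-fold (interval 0.822 to 1.02). Added together, the records held 8951 normalized counts with bufalin and 8950 in control, and 8432 with periplocin against 8671 in control, or 1.0-fold and 0.972-fold.

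Of the catalytic beta subunits, Psmb5, which carries the chymotrypsin-like activity and is the target of clinical proteasome inhibitors, held 1410 normalized counts with bufalin and 1455 in control, and 1443 with periplocin against 1410 in control. Its change was 0.969-fold (interval 0.842 to 1.11) and 1.02-fold (interval 0.907 to 1.16). Psmb7, the trypsin-like subunit, held 5358 with bufalin and 5340 in control, and 5106 with periplocin against 5173 in control, so that its intervals ran from 0.930 to 1.08-fold and from 0.918 to 1.06-fold. Psmb2, a structural beta subunit, was lowest in the bufalin comparison among members with over 100 counts. It held 805 with bufalin and 946 in control, or 0.851-fold (interval 0.738 to 0.981). With periplocin it held 846 against 917 in control, or 0.923-fold (interval 0.804 to 1.06). The bufalin value had an unadjusted p of 0.0259 in the authors' deposited table, no adjusted p there, and an adjusted p of 0.967 when DESeq2's p-values were adjusted over all genes.

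Psmb6, the caspase-like subunit, had the highest fitted fold of any member with both compounds, and few counts. It held 92.7 normalized counts with bufalin and 57.5 in control, and 126 with periplocin against 55.6 in control. The folds were 1.61 (interval 0.885 to 2.94) and 2.27 (interval 1.12 to 4.61), with unadjusted p of 0.118 and 0.0231 and an adjusted p of 0.609 with periplocin in the authors' deposited tables (DESeq2). The RNA tables also list LOC100360846, which RefSeq names Psmb6l1, a copy of Psmb6 by name, and which was looked up after these values were seen. This copy held 1238 normalized counts with bufalin and 1317 in control, and 1114 with periplocin against 1277 in control, or 0.940-fold (interval 0.824 to 1.07) and 0.873-fold (interval 0.768 to 0.992). Psmb6 and the copy together held 1330 with bufalin and 1375 in control, and 1240 with periplocin against 1332 in control, or 0.968-fold and 0.931-fold. The sum thus lay on the other side of control from Psmb6 alone. Whether reads are split between the records was not tested, and the level of Psmb6 is uncertain.

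Psmb1, Psmb3 and Psmb4, the structural beta subunits with over 1000 counts, ranged from 0.953-fold to 0.988-fold with bufalin and from 0.931-fold to 0.976-fold with periplocin. Psmb11, the thymus subunit, had fitted means of 8.40 with bufalin and 11.7 in control, and of 12.1 with periplocin against 11.3 in control. Its intervals, from 0.143 to 3.61-fold and from 0.223 to 5.11-fold, are too wide to detect a moderate change in either direction.

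In other mammals proteasome promoters are known to hold antioxidant response elements, through which Nfe2l1 acts. The promoters of Psmb2, Psmb5 and Psmb6 are shown because they are the beta ring genes whose window, 250 bases before to 50 after the start in RefSeq (GRCr8), holds the core of this element, TGACNNNGC on either strand. Capitals mark it, 68, 60 and 24 bases before the start. The windows are chr5:144254808-144255107 (plus strand), chr15:32047330-32047629 (minus strand) and chr10:55737638-55737937 (plus strand), each 5′ to 3′ on the gene's strand. In Psmb2 the element shares a base with a CCAAT box.
Psmb2: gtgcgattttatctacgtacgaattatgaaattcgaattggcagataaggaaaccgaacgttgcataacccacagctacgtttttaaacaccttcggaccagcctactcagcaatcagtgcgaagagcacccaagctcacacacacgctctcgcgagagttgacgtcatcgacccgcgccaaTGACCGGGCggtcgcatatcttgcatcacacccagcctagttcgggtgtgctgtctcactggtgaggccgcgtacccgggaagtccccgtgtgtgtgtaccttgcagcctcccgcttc
Psmb5: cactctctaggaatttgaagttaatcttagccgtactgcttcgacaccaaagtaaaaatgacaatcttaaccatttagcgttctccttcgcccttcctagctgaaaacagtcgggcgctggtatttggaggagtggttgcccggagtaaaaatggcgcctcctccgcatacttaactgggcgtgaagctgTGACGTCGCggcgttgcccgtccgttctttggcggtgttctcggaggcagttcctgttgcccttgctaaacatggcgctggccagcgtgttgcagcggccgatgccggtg
Psmb6: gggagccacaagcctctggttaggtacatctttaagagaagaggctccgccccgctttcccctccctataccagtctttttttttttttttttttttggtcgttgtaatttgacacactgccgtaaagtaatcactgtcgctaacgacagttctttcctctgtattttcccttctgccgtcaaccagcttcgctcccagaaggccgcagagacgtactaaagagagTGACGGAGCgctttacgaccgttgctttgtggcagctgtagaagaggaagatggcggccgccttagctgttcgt
The element was found in 8 of the 39 members that have a promoter in the table (20.5%), against 12.1% of 33469 promoters and 15.2% of the promoters of genes whose mean in the bufalin table reached 1000 counts. It was in 4 of 14 core and 2 of 14 regulatory particle promoters. The 8 genes with it had a median log2 change of -0.04 with bufalin and 0.02 with periplocin, and the 31 without it -0.04 and -0.03. The ETS-type motif CCGGAAG, searched on both strands and apart from the others, was in 14 of the 39 (35.9%), 4 of 14 in the core and 7 of 14 in the regulatory particle, against 8.75% of all promoters and 20% of those of the same well-counted genes. Members with CCGGAAG had medians of -0.02 and -0.02, and those without it -0.05 and -0.03, with bufalin and periplocin. CCAAT was in 18 (46.2%), 9 of 14 in the core and 5 of 14 in the regulatory particle. The shares were 37.5% of all promoters and 37.8% of those of the well-counted genes. Members with CCAAT had medians of -0.06 and -0.03, and those without it -0.03 and -0.02, with bufalin and periplocin. A match is a run of letters in this window and was not tested for binding.

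The 17 regulatory particle genes all had 95% intervals within a range of 0.8-fold to 1.25-fold of control in both comparisons, with standard errors of 0.05 to 0.08 (log2) with bufalin and 0.03 to 0.07 with periplocin. Among the ATPases, which unfold the substrate, Psmc1 held 7728 normalized counts with bufalin and 8078 in control, and 7801 with periplocin against 7827 in control. The 6 ATPases ran from 0.957-fold to 1.03-fold with bufalin and from 0.984-fold to 1.01-fold with periplocin. Psmc3 held 11683 with bufalin and 12064 in control, or 0.968-fold (interval 0.879 to 1.07), and 11799 with periplocin against 11688 in control, or 1.01-fold (interval 0.942 to 1.08). Psmc4 held 3965 with bufalin and 4069 in control, or 0.974-fold (interval 0.883 to 1.07), and 3949 with periplocin against 3942 in control, or 1.0-fold (interval 0.915 to 1.10). Psmc5 held 5579 with bufalin and 5747 in control, or 0.971-fold (interval 0.882 to 1.07), and 5481 with periplocin against 5567 in control, or 0.984-fold (interval 0.905 to 1.07). The intervals of these 3 ATPases include 1 with both compounds. Psmc6 held 4105 with bufalin and 3990 in control, or 1.03-fold (interval 0.943 to 1.12), and 3835 with periplocin against 3865 in control, or 0.992-fold (interval 0.914 to 1.08). The scaffold subunit Psmd2 held 20133 with bufalin and 19769 in control, and 19535 with periplocin against 19153 in control. Its intervals were 0.954 to 1.09-fold and 0.973 to 1.07-fold. Psmd1, the other large scaffold, stood at 0.968-fold and 1.01-fold, and Psmd4, a ubiquitin receptor, at 1.02-fold and 0.966-fold with bufalin and periplocin.

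Psmd14, the deubiquitinase that removes ubiquitin chains at the entry to the core, had the lowest p of all members. It held 3317 normalized counts with periplocin and 3671 in control, or 0.904-fold (interval 0.838 to 0.975), with an unadjusted p of 0.00858 and an adjusted p of 0.396 in the authors' deposited table (DESeq2). With bufalin it held 3752 against 3788 in control, or 0.990-fold (interval 0.907 to 1.08). Psmd13 had the lowest p of the regulatory genes with bufalin, at 6522 with bufalin and 6915 in control, or 0.943-fold (interval 0.883 to 1.01). Psmd8 stood above control with both compounds, at 1.06-fold (interval 0.976 to 1.15) and 1.05-fold (interval 0.986 to 1.12), and neither passed. Psmd12, a lid subunit, held 9188 with bufalin and 9317 in control, or 0.986-fold (interval 0.914 to 1.06), and 8618 with periplocin against 9026 in control, or 0.955-fold (interval 0.900 to 1.01). Psmd6, another lid subunit, held 4770 with bufalin and 4839 in control, or 0.986-fold (interval 0.904 to 1.08), and 4741 with periplocin against 4688 in control, or 1.01-fold (interval 0.945 to 1.08). Psmd7, the partner of Psmd14 in the lid, held 10312 with bufalin and 10101 in control, or 1.02-fold (interval 0.957 to 1.09), and 9961 with periplocin against 9786 in control, or 1.02-fold (interval 0.965 to 1.07). All 6 of these intervals include 1.

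The medians of core and regulatory particle genes lay close together. With bufalin the median log2 change was -0.05 for the 16 core genes, of which 14 were below control, and -0.02 for the 17 regulatory genes, of which 11 were below. With periplocin the medians were -0.03, with 10 of 16 below, and 0.00, with 9 of 17 below. The core minus regulatory difference was thus -0.03 with bufalin and -0.02 with periplocin. This is a description without a test, since genes of 1 set of libraries are no replicates, and both comparisons share their controls. Of all genes whose mean reached 1000 counts, 44.6% were below control with bufalin and 49.6% with periplocin.

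**Figure D2:**
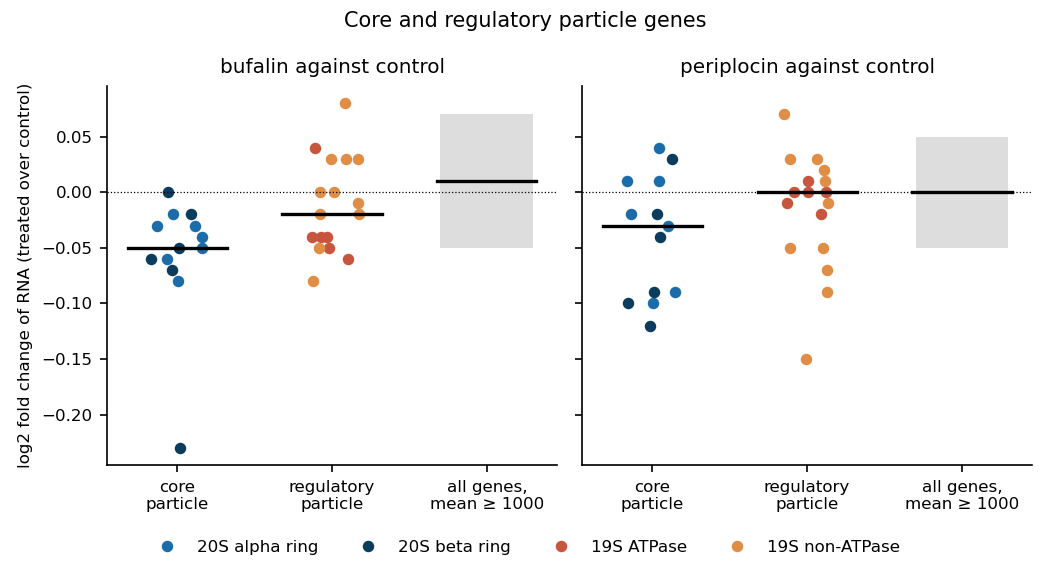
Log2 fold change of RNA (treated over control) for 13 core and 17 regulatory particle genes with a mean of at least 100 normalized counts, bufalin at left and periplocin at right. Points are genes, black lines are class medians over all 16 core and 17 regulatory genes, and the grey bar spans the quartiles of all genes whose mean reached 1000. Core medians of -0.05 and -0.03 sit slightly below the regulatory medians of -0.02 and 0.00, and the points overlap.

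Of the 33 core and regulatory genes, the 29 with a mean of at least 1000 in both tables all had intervals inside these limits, 12 of them in the core, and their intervals reached at most from 0.835 to 1.15-fold with bufalin and from 0.838 to 1.18-fold with periplocin. Among all genes at that level 85.7% did with bufalin and 92.0% with periplocin. The other 4, Psma8, Psmb2, Psmb6 and Psmb11, are core genes with fewer counts. Levels of different genes are not ranked here, since they were not scaled by transcript length.

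**Figure D3:**
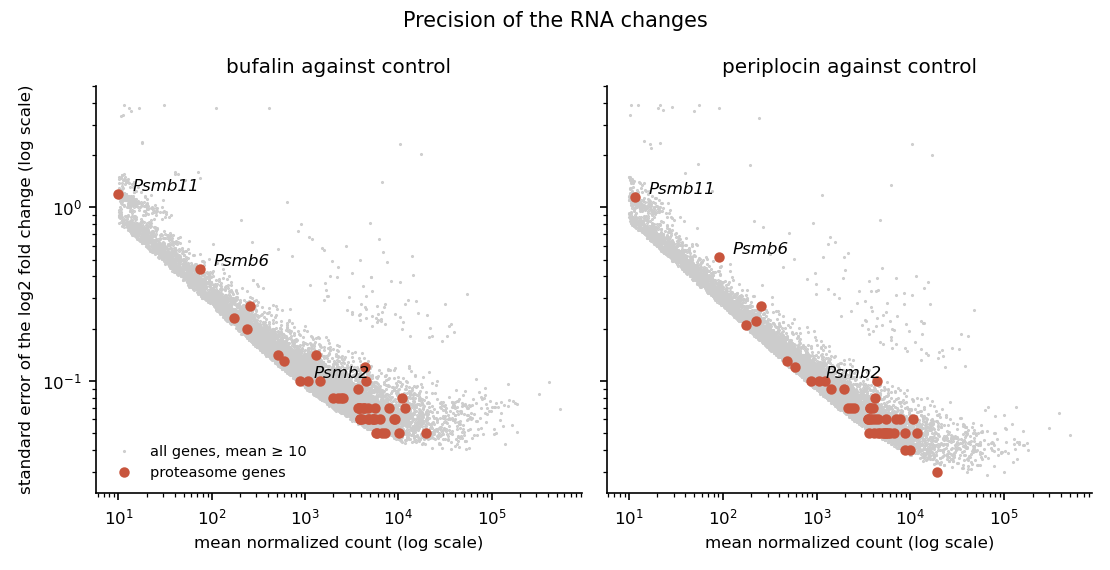
Standard error of the log2 fold change against the mean normalized count, both on log scales, with all genes in grey and proteasome genes in red, bufalin at left and periplocin at right. Only genes with a mean of at least 10 are plotted, which leaves out Psma8, whose standard errors were 2.0 and 2.3. Psmb11 and Psmb6 have the largest standard errors of the members plotted.

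The assembly chaperones and the inhibitor had wider intervals than the regulatory particle genes, with median standard errors of 0.10 to 0.21 (log2). The 3 chaperones of 19S assembly were below control with both compounds: Psmd9 at 0.899-fold (interval 0.802 to 1.01) and 0.962-fold, Psmd5 at 0.927-fold and 0.965-fold, and Psmd10, also known as gankyrin, at 0.928-fold and 0.956-fold with bufalin and periplocin. Psmg1, a chaperone of alpha ring assembly, held 551 with bufalin and 633 in control, or 0.871-fold (interval 0.731 to 1.04), and 562 with periplocin against 613 in control, or 0.916-fold. Psmf1, which inhibits the core, stood at 0.941-fold and 0.885-fold (interval 0.745 to 1.05) with bufalin and periplocin.

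Among activators, Psme1 and Psme2 form the interferon-inducible cap, and Psme2 held 2042 normalized counts with periplocin and 2255 in control, or 0.905-fold (interval 0.822 to 0.997). Its unadjusted p was 0.0433 and its adjusted p 0.732 in the authors' deposited table (DESeq2). With bufalin it was at 0.941-fold (interval 0.846 to 1.05). Psme4, which encodes the large activator PA200, stood at 1.05-fold (interval 0.961 to 1.14) and 1.06-fold (interval 0.988 to 1.13). Psme3, the nuclear activator, stood at 0.914-fold and 0.984-fold with bufalin and periplocin.

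The interacting proteins carry the name of a subunit or an activator and are themselves no subunits. Psmc3ip, which takes part in meiotic recombination, held 1321 with bufalin and 1303 in control, or 1.01-fold (interval 0.836 to 1.23), and 1223 with periplocin against 1263 in control, or 0.969-fold (interval 0.842 to 1.11). Psme3ip1, a binding partner of Psme3, held 3850 with bufalin and 3698 in control, or 1.04-fold (interval 0.941 to 1.15), and 3808 with periplocin against 3583 in control, or 1.06-fold (interval 0.971 to 1.16). The 7 members not described singly, Psma2, Psmc2, Psmd3, Psmd11, Psme1, Psmg2 and Psmg4, ranged from 0.966-fold to 1.04-fold with bufalin and from 0.941-fold to 1.15-fold with periplocin.

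Bufalin was set against periplocin by way of their common control, by an approximate Wald test over 10602 genes, of which 0.396% passed an adjusted p of 0.05. Of the 46 members tested 0 passed, and 1 passed an unadjusted p of 0.05, against 6.34% of all genes. That gene was Psmd14, higher with bufalin than with periplocin by 0.13 (log2, interval 0.01 to 0.25, adjusted p 0.682 by the Wald test). With the upper limit of the standard error, in which the shared controls are not cancelled, its unadjusted p was 0.122 by that test. The intervals of the difference given here use the smaller standard error, with those controls cancelled. For Psmb5 the bufalin minus periplocin difference was -0.08 (interval -0.27 to 0.11), for Psmb7 0.02 (interval -0.08 to 0.13) and for Psmd2 0.00 (interval -0.08 to 0.08). All 17 regulatory and 13 of 15 core genes had intervals of the difference inside the same limits, as had 53.4% of all genes tested and 89.0% of those whose mean reached 1000 in both tables. The doses are not known to match. Bufalin has no sugar and periplocin carries sugars, and no difference in proteasome RNA was shown between them.

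The m6A peaks on members lay mostly on regulatory particle genes, whose share with a peak is near that of all genes of like count. In the authors' list for bufalin 19 of 47 members had at least 1 peak, and in the list for periplocin 20 of 47, where 47.8% and 45.5% of all genes whose mean reached 10 had one. All of these members had means of at least 1000, as 38 members did, and 67.6% and 65.6% of all genes at that level had a peak. Of the regulatory genes, all of that level, 10 of 17 (58.8%) carried a peak in the bufalin list and 12 of 17 (70.6%) in the periplocin list. Of the 12 core genes of that level 3 (25%) and 4 (33.3%) did, all of the alpha ring: Psma3, Psma4 and Psma5 in both lists and Psma6 in the periplocin list. No beta ring gene had a peak in either list, 5 of the 8 having a mean of at least 1000. This contrast is a description, and what part transcript length and depth have in it was not tested.

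Psmd12, a subunit of the regulatory lid, had 4 peaks in the bufalin list and 3 in the periplocin list, where Psme4 also had 3. They lay between positions 95713140 and 95725304 of chromosome 10 (rn6, plus strand), and the strongest had a fold enrichment of 2.64 and 2.61 in the authors' deposited lists. Psmd1 had 3 and 2 peaks on chromosome 9, with fold enrichments of 1.33 to 2.27 and 2.18 to 2.50. Psma4 had a peak over 3 exon blocks on chromosome 8, from 59538284, with fold enrichments of 1.98 and 1.95. Psma3 and its second record had the highest values in the core, 2.62 and 2.57 in the bufalin list and 2.55 and 2.54 in the periplocin list, and the peaks of both records overlap. Which exon, coding region or untranslated region a peak lies in was not analysed here.

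**Figure D4:**
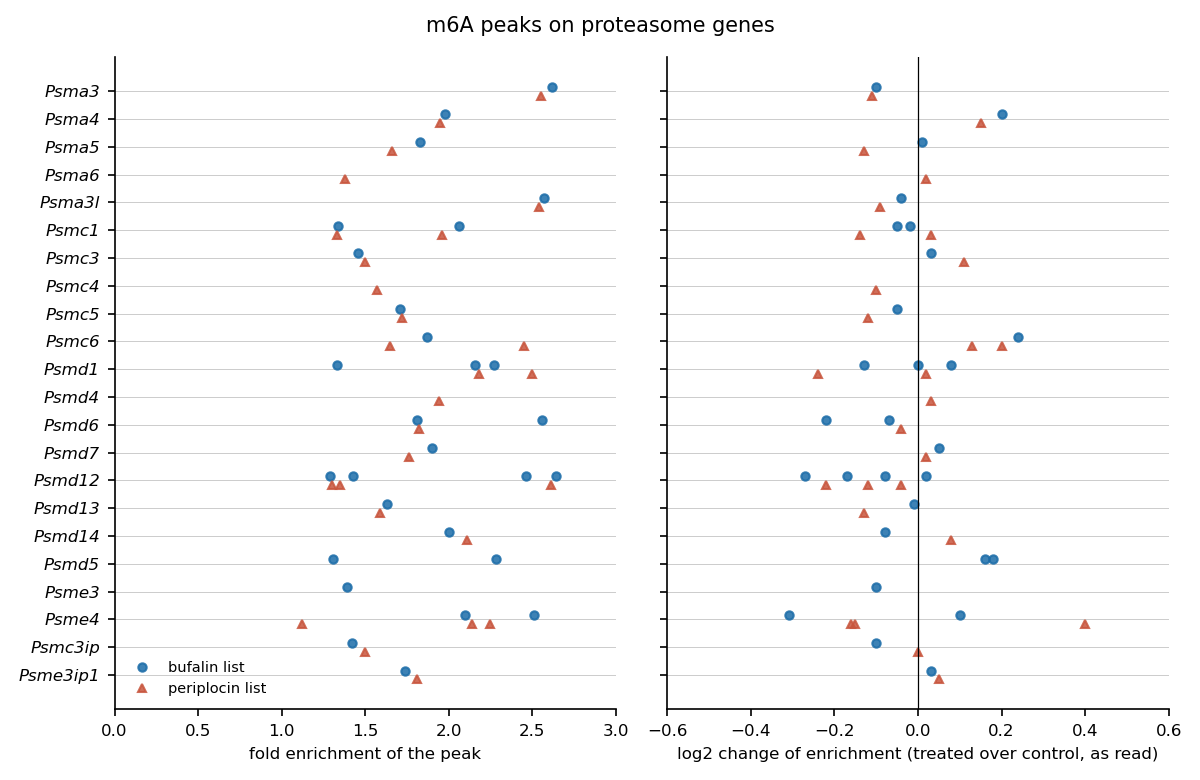
Fold enrichment (left) and log2 change of enrichment (right) of each m6A peak on a proteasome gene, circles for the bufalin list and triangles for the periplocin list, 1 symbol per peak. Enrichments lie between 1.12 and 2.64, changes between -0.31 and 0.40, and no beta ring gene appears.

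The ATPases carried peaks on 4 and 5 of 6 genes. Psmc6 had 1 peak in the bufalin list and 2 in the periplocin list, and the peak in both, from 19668703 to 19672507 on chromosome 15, had fold enrichments of 1.87 and 1.65. Psmc1 had 2 peaks in both lists, with fold enrichments of 2.06 and 1.34 in the bufalin list and of 1.96 and 1.33 in the periplocin list. Psmc3 and Psmc5 had 1 peak in each list, and Psmc4 had 1 of fold enrichment 1.57 in the periplocin list. Of the other non-ATPases, Psmd6 had 2 and 1 peaks, Psmd7, Psmd13 and Psmd14 had 1 in each list, and Psmd4 had 1 in the periplocin list. Psmd14, lowest by p in RNA with periplocin, had a peak over 4 exon blocks with fold enrichments of 2.0 and 2.11. Outside both particles, Psmd5 had 2 peaks and Psme3 1 in the bufalin list, Psme4 had 2 and 3, and the interacting proteins Psmc3ip and Psme3ip1 had 1 in each list.

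The enrichment of these peaks was not shown to change with either compound. Of 28 member peaks in the bufalin list and 27 in the periplocin list, 0 passed an FDR of the change of 0.05 in the authors' deposited lists, where 0.0304% and 0.0436% of all peaks did. At an unadjusted p under 0.05 also 0 passed, against 3.04% and 3.37% of all peaks. The lowest p of the change was 0.0933, for a Psme4 peak with a log2 change of -0.31 with bufalin, and 0.0741, for the Psmc3 peak at 0.11 with periplocin, in the authors' deposited lists. The median log2 change was -0.03 over member peaks with bufalin, against -0.02 over the whole list, and -0.04 with periplocin, against -0.01. Median fold enrichments of 1.89 and 1.81 stood beside 1.82 and 1.81 over the whole lists. Of the member peaks, 22 lay in both lists by an overlap of 1 base, 78.6% of those in the bufalin list and 81.5% of those in the periplocin list. The overlapping peaks of Psma3 and Psma3l are counted separately in this. No such share over all peaks is given here, so the overlap cannot be read as a trait of proteasome genes. The lists also share their control libraries.

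Other genes of the pathway were read from a list of 38, of which 35 were in the tables, the 3 immunoproteasome subunits among them. With bufalin 0 of the 22 that had an adjusted p were called, where 0.301% of all genes were. With periplocin 1 of 35 was called, where 0.538% of all genes were. That gene, Zfand2a, encodes a proteasome-associated zinc finger protein induced by arsenite, and it rose to 2836 normalized counts with periplocin, against 1927 in control, or 1.47-fold (interval 1.27 to 1.70; adjusted p 8.17e-05 in the authors' deposited table, DESeq2). At an unadjusted p under 0.05, 4 genes passed with each compound, all higher, where 3.04% and 4.09% of all genes passed and were higher. Of the 35 genes, 31 had a mean of at least 1000. Among all genes at that level, 280 of 5432 with bufalin and 323 of 5379 with periplocin passed and were higher. The pathway genes that passed included Nfe2l1, Ubb and Faf1 with bufalin, and Zfand2a, Zfand5 and Ubb with periplocin.

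Ubb, a polyubiquitin gene, stood at 1.08-fold and 1.06-fold with bufalin and periplocin. Nfe2l1, the factor that raises proteasome genes, held 46524 with bufalin and 40923 in control, or 1.14-fold (interval 1.05 to 1.23; adjusted p 0.148 in the authors' deposited table, DESeq2), and stood at 1.01-fold (interval 0.968 to 1.05) with periplocin. The bufalin minus periplocin difference of Nfe2l1 was 0.17 (log2, interval 0.08 to 0.26), with an adjusted p of 0.0455 by the approximate Wald test and of 1.0 with the upper limit of its standard error. For Zfand2a, at 1.14-fold (interval 0.942 to 1.39) with bufalin, that difference had an adjusted p of 0.286 by the same Wald test. Zfand5, an activator of the proteasome, stood at 1.04-fold and 1.15-fold, and Faf1, a partner of the unfolding ATPase Vcp, at 1.10-fold and 0.990-fold with bufalin and periplocin.

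RNA of 3 further genes of the particle and its assembly is given as examples. Adrm1, a ubiquitin receptor of the regulatory particle, stood at 1.0-fold and 1.02-fold, Sem1 at 1.02-fold and 1.05-fold, and Pomp, which matures the core, at 0.970-fold and 0.976-fold with bufalin and periplocin. The interferon-inducible catalytic subunits had few counts. Psmb9 held 124 with bufalin and 165 in control, and 115 with periplocin against 160 in control, or 0.751-fold (interval 0.549 to 1.03) and 0.723-fold (interval 0.505 to 1.03). Psmb8 stood at 0.916-fold and 0.816-fold and Psmb10 at 0.962-fold and 1.10-fold, and all 6 of these intervals include 1.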

How the data were processed

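Libraries of 18 samples, 3 IP and 3 input for each of 3 conditions, came from a stranded mRNA kit with molecular identifiers, per the labels' protocols. HISAT2, StringTie, DESeq and the rn6 build are named in the submitters' processing notes, with versions not given in the sources used here. Each deposited file holds the authors' comparison with control, without values of single libraries, so depth per library is unknown. The sources do not say if input or IP libraries gave the RNA tables.

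The signal column of the deposited RNA tables was read as the authors' mean count after size-factor scaling. The log2 fold changes, their standard errors, the Wald score, the p-values and the adjusted p-values are the authors' DESeq2 output, as read from the deposited tables' column names. The deposited score had the sign of the fold change in all 12881 genes with bufalin and the opposite sign in all 12913 with periplocin, so signs came from the fold changes. Read as treated over control, both tables gave control means within 1% of each other in 10608 of 10608 genes whose mean reached 10 in both, after an offset of 0.05 (log2). With either sign turned, at most 1158 genes did so. In the deposited peak lists, the ratio is the fold enrichment, read as IP over input. Its log10 columns give p and FDR, for enrichment and for the change, per the file headers. No source states which way the m6A change runs, and treated over control was assumed. Peak starts were read as counted from 0 and are printed counted from 1.

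Group means were fitted from the mean and the fold change with 3 libraries a group. Intervals are 95% Wald intervals. The compounds were compared by an approximate Wald test on the log2 fold changes' difference, with Benjamini-Hochberg adjustment over 10602 genes. Its standard error was rebuilt from the authors' with the shared controls cancelled. The test was run on simulated data in which the spread of each gene was known, which does not check how well that spread is rebuilt from the deposited values. Members and lists were chosen with earlier results of these data known. Members with an unadjusted p under 0.05, catalytic subunits and members with a peak were named by rule, the other members as examples or by their range, and pathway genes are named by the same threshold, except that some are not reported here by name and stay in the counts. Adrm1, Sem1, Pomp and the immunoproteasome genes were added as examples after their values were seen. The limits of 0.8-fold and 1.25-fold were chosen after the values were seen. Alternatives were thresholds, the genes over which p was adjusted, centring, membership, weighting, count filters and peak overlap. Gene names and promoters came from RefSeq tables of GRCr8, a build whose coordinates differ from rn6. Computations ran in Python 3.11.15 with pandas 2.3.3, numpy 2.4.6 and scipy 1.17.1, and plots in matplotlib 3.10.9.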

Additional observations from a re-analysis of the deposited data

How the results depend on the processing

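Of 33 alternatives, 4 of them added after seeing the data (centring on genes with a mean of at least 1000), 31 kept the direction and the size of the result within its spread. The count of members called was 0 under each alternative threshold, adjustment and standard error. The median changes ran from -0.06 to -0.05 for the core with bufalin, from -0.04 to -0.03 for the core with periplocin, from -0.03 to -0.01 for the regulatory particle with bufalin and from -0.01 to 0.00 with periplocin. With a fold enrichment of at least 2, members with a peak were 9 in the bufalin list and 7 in the periplocin list, since most peaks lie below it. No paired analysis was possible because the deposited tables hold no values per library, and for the same reason no replicate could be left out. Counts limit Psma8, Psmb2, Psmb6, Psmb11, Psmd10, Psmf1 and the chaperones of 20S assembly.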
